A study of Mus musculus with 18 samples.

Results

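The peaks described here are those of the genes with the most listed peaks in a pooled map of protein occupancy in mouse T cell RNA. They were chosen by counting the peaks listed for each gene, taking every gene with 20 or more, and then leaving out any peak that was among the 500 highest scores of the whole list. This gave 3227 peaks of 27729 listed, in 123 genes of the 6689 that had any peak. Before the 500 were left out the 123 genes held 3263 peaks, 11.8% of the list in 1.84% of its genes. The rule therefore used the number of peaks and the upper end of the score, and both are given below as descriptions with no test. The 36 peaks left out came from 12 genes, led by Laptm5 with 11 and Il2ra with 8, so 5 of the 123 genes kept fewer than 20 members. At the edge of the rule, 22 genes had exactly 20 peaks and 26 genes had 19. The median spacing was 84 nt among the genes with 20 peaks and 90.5 nt among those with 19, and the median of their highest scores was 90 and 115. The highest member score was 257, and the lowest score among the 500 was 261.

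The peaks came from 10 libraries of GCLiPP (global cross-linking and protein purification), in which 254 nm ultraviolet light (8000 mJ) ties proteins to RNA, all proteins are biotinylated and captured, and the RNA they protect from RNase T1 is sequenced. RNA was measured in 8 RNA-seq libraries of oligo-dT selected RNA, 1 per condition. All cells were C57BL/6 T cells activated through CD3 and CD28 by plate-bound antibodies and grown for 5 days, either CD8 T cells with IL-12 and IL-2, or Th2 cells, which are CD4 T cells grown with IL-4, anti-Ifn-gamma and IL-2. Stimulated cells received PMA and ionomycin, which imitate signals from the T cell receptor, for 4 h, and resting cells received fresh medium. A further stimulated and a further resting library of each cell type came from cells given actinomycin D, which stops RNA synthesis. The study's methods describe adding the drug after PMA and ionomycin, over a course of several times, and which time these libraries had is not given in the sources used here. Per the study's methods the GCLiPP cells of a culture were drawn from several mice, and the peak list pools all GCLiPP libraries, so it holds no value per library or condition.

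RNA-seq depth was 24154849 to 31042504 gene reads per library. The labels were checked against marker genes. Cd4 had 25.9 to 280.9 normalised reads in the CD8 libraries and 20060 to 39570 in the Th2 libraries, and Cd8a had 10520 to 15750 in the CD8 libraries and 1331 to 2401 in the Th2 libraries. The 8 B cell markers summed to 203 to 270 in the CD8 libraries and 1083 to 1316 in the Th2 libraries, the 10 myeloid markers to 114 to 485 over all 8, and the 7 erythroid markers to 2.98 to 16.7. Some genes went against their list: Il1rl1, on the Th2 list, had 2325 to 3563 in the CD8 libraries and 50.6 to 113.3 in the Th2 libraries, and Gzma, on the CD8 list, had 2845 to 5607 in the CD8 libraries and 17760 to 30400 in the Th2 libraries. The part of other cells in the results below was not tested.

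Proteins that bind the 3′ untranslated region (3′ UTR) of a messenger RNA set how long it lasts, where it goes and how often it is translated. A UTR can carry many such sites, among them AU-rich elements, runs of U or of UG bound by proteins of the ELAV and CELF families, sites for Pumilio proteins, and the polyadenylation signal that directs cleavage at the 3′ end. In activated T cells this layer controls costimulatory receptors, cytokines and transcription factors whose RNA has to appear and vanish quickly.

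The genes with the most peaks were Ccnd2 with 69, Ago2 with 65, Nfat5 with 51, Rbpj with 48, Cd28 with 47, Celf1 with 45, Inhba with 43, Klf13 with 41, Mllt6 with 40, and Fam107b, Zbtb7a and Scd2 with 39 each. The first 10 names, with ties in alphabetical order, are shown by 30 nt from their highest member peak, to show what a stretch of each UTR with a high score looks like. The sequences are RNA-sense, 5′ to 3′, read from GENCODE M21 transcripts on GRCm38, the assembly also called mm10. Capitals mark the motif nearest to the centre of the peak, of the 9 searched below, and the stretch was placed around it. Where the peak held none, the stretch is its centre.
Ccnd2 (chr6:127128977-127129006, minus strand): cattttggtcccttttccgTTTTTtgtttg
Ago2 (chr15:73102100-73102129, minus strand): gtgaggtcactgcTGTGTcagactgtcatt
Nfat5 (chr8:107372707-107372736, plus strand): acatgtgttgaacTGTGTggagcttggtgt
Rbpj (chr5:53657041-53657070, plus strand): tttctattaatttCCCCCtgtgttgtgata
Cd28 (chr1:60771156-60771185, plus strand): gtatctggggaccttgaagaacggctgtcc
Celf1 (chr2:91017918-91017947, plus strand): ggtgacaagcacAATAAAtactacagtctt
Inhba (chr13:16027716-16027745, plus strand): acacacacacacgCCCCCccacacacacac
Klf13 (chr7:63891338-63891367, minus strand): attaaaacaaaacAAAAAcaccacccacaa
Mllt6 (chr11:97683710-97683739, plus strand): acttagaactggcTGTGTagaccaggctgg
Fam107b (chr2:3781501-3781530, plus strand): cctgatgctgttctactctacaacactggg
All 10 lie in the 3′ UTR of the gene they are listed under. The stretches of Ago2, Nfat5, Rbpj and Mllt6 hold TGTGT, that of Inhba a stretch of alternating A and C, and those of Cd28 and Fam107b none of the motifs searched.

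What these genes encode is varied. Ccnd2 is cyclin D2, which drives entry into the cell cycle, Ago2 is the Argonaute protein that carries microRNAs to their targets, and Celf1 is itself a protein that binds GU-rich stretches of UTRs. Nfat5 is a transcription factor of the response to salt stress, Rbpj is the factor through which Notch acts on DNA, and Klf13 is a zinc finger factor. Cd28 is the main costimulatory receptor of T cells, and Inhba is the subunit of activin A. Of the 106 RNA-binding and decay proteins listed for this report 14 were among the 123 genes, as were 11 of 102 T cell transcription factors, 9 of 101 surface receptors and adhesion molecules, 6 of 136 kinases, phosphatases and signalling proteins, 5 of 101 cytoskeleton and traffic proteins, 3 of 82 chromatin regulators, 1 of 33 cytokines (Lif) and 0 of 79 ubiquitin ligases and deubiquitinases. The lists were written by hand with earlier results known, and the counts carry no test.

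Almost all members sat where the peak caller looked for them. By GENCODE M21, 3087 of 3227 (95.7%) fell in a 3′ UTR of their own gene, and 96.8% of the other peaks outside the 500 did. For 109 of the 123 genes every peak was in its own annotated 3′ UTR. The exceptions were mainly Kcna3, Cmip, Sfpq, Hipk2, Txnl4a and Il12rb1, whose peaks lie largely outside the 3′ UTR annotated under that name. Of the members in their own 3′ UTR, 4.66% were within 50 nt of an annotated 3′ end and 6.03% within 100 nt of a stop codon, against 10.46% and 16.1% of all other peaks outside the 500. The first of these shares went with the number of peaks per gene, which the rule used, and was 7.22% in genes with 10 to 19 peaks and 16.96% in genes with 1. In the 116 genes with at least 80% of peaks in their own 3′ UTR, that UTR had a median length of 3572 nt (1392 to 12787), against 2301 nt in genes with 10 to 19 peaks, 1812.5 nt in genes with 5 to 9, 1617 nt in genes with 2 to 4 and 1383 nt in genes with 1.

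Peaks were also denser in these UTRs, with a median of 8.20 per kb of UTR in the 116 genes, 5.63 in genes with 10 to 19 peaks, 3.46 in genes with 5 to 9, 1.68 in genes with 2 to 4 and 0.723 in genes with 1. A UTR of 3000 nt or more was found in 66 of the 116 and also in 1620 genes with fewer than 20 peaks. The peaks together covered a median of 53.4% of the UTR, between 16.3% in Cnot6l (20 peaks over 8370 nt), a deadenylase subunit, and 91.3% in Mapkapk2 (22 peaks over 1392 nt), a stress kinase. Ccnd2 reached its 69 peaks in 5491 nt, with 74.8% of the UTR covered, while Ago2 spread 65 over 11064 nt with 38.6% covered. Nfat5 had the longest UTR of the 116, with 26.4% covered. High peak numbers were thus found both in closely packed UTRs and in long, sparsely covered ones.

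**Figure D1:**
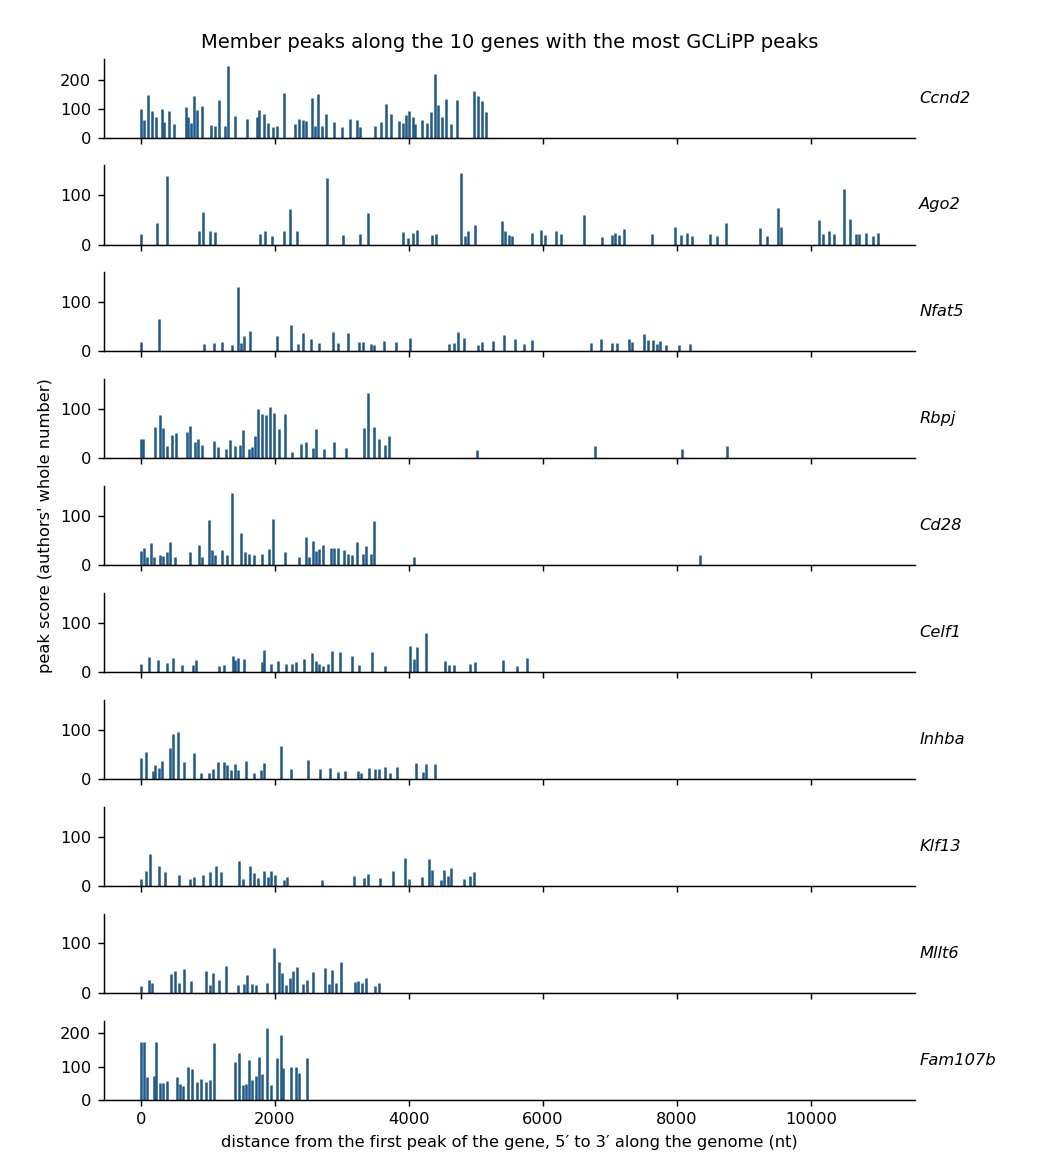
Member peaks of the 10 genes with the most peaks, drawn at their distance in nt from the gene's first peak in the direction of transcription (horizontal axis) with the score as height (vertical axis, with its own upper limit in each row). Ago2 extends over 11078 nt and Fam107b over 2552 nt, and in Rbpj and Cd28 a few peaks lie far beyond the rest.

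Neighbouring members were close. The distance between the centres of adjacent members of a gene had a median of 84 nt (quartiles 58 and 147 nt, 3104 distances), and 84.6% were at most 200 nt. Every listed peak is 70 nt wide, so the 37.1% of distances under 70 nt belong to peaks that overlap and share bases and reads. No member centre was closer than 36 nt to the next. The median was 92 nt in genes with 10 to 19 peaks, 109 nt with 5 to 9 and 164 nt with 2 to 4. All 4 groups of genes had the same most common distance, 50 to 60 nt.

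**Figure D2:**
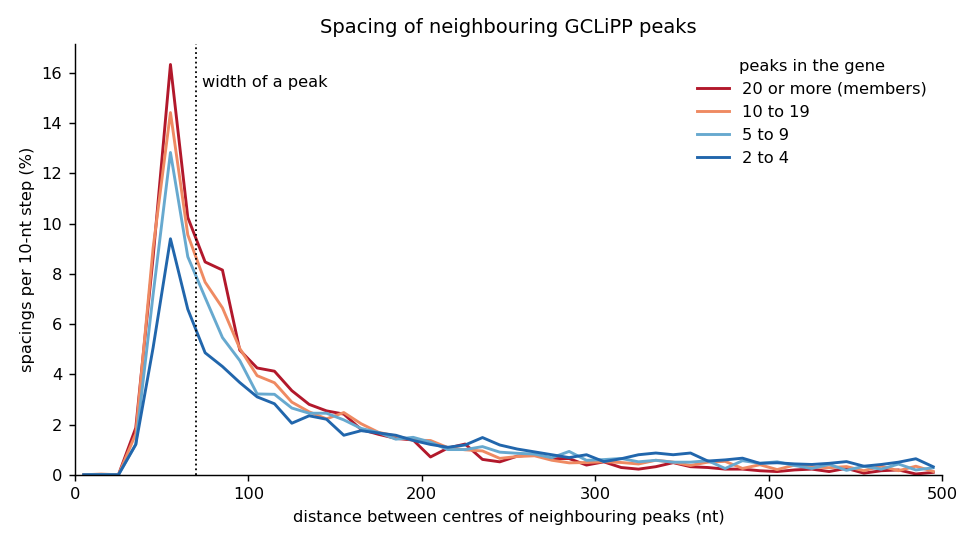
Distance between centres of neighbouring peaks in nt (horizontal axis) and the percentage of distances in each step of 10 nt (vertical axis), for members and for genes with 10 to 19, 5 to 9 and 2 to 4 peaks. The dotted line marks the 70 nt width of a peak, and the distances of members peak at 50 to 60 nt like those of the other groups.

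Among the 123 genes the median spacing ran from 54 nt to 267 nt. The tightest were Khsrp (54 nt), which encodes a protein that speeds the decay of AU-rich messages, Fam107b (56 nt), Leng8 (56.5 nt), Rcc2 (57 nt) and Psmd11 (58 nt), a proteasome subunit. The widest were Hipk2 (267 nt), a nuclear kinase, Cds2 (262 nt), Lnpep (230 nt), Kcna3 (230 nt), the Kv1.3 potassium channel of T cells, and Eif4ebp2 (213 nt), a repressor of cap-dependent translation. The spacing was uneven within most genes, with a coefficient of variation of 0.703 at the median. Sept9 and Mapkapk2 were the most regular, both at 0.27. In 21 genes at least 1 gap exceeded 1000 nt, as in Cd28 and Rbpj, where single members stand kilobases downstream of a dense block.

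The score of a peak is a whole number of at least 13 whose meaning no source states. Within a gene the scores were far from even: the highest of a gene, the 500 included, was a median of 7.0 times its lowest (2.62 to 32.1), and the coefficient of variation of the member scores was 0.596 at the median (0.285 to 0.987). The evenest gene was Nucks1 (13 to 34) and the widest range was that of Mbnl1 (14 to 450, with 2 of its peaks among the 500). In 78 genes the lowest score was 13, the lowest in the whole list, so the lower end of their range is set by the list. The lowest score was under 0.20 of the highest in 93 genes and under 0.10 in 19.

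The level of the scores differed between genes as well. The gene medians of the member scores ran from 15 to 163, around a median of 26. The highest were those of Laptm5 (163), a lysosomal membrane protein that lowers T cell receptor levels, Il2ra (114), the high-affinity subunit of the IL-2 receptor, Lcp1 (97.5) and Tpm3 (97), which bundle and coat actin filaments, and Furin (96), a protease that matures TGF-beta. The lowest were those of Cds2 (15), Cnot6l (17), Glg1 (17.5), Cflar (18), an inhibitor of death receptor signals, and Lnpep (18). High members were found in Lif (252), Il2ra (250 and 230), Scd2 (249), Ccnd2 (248), Lcp1 (247), Slc7a5 (245), Tpm3 (245) and Laptm5 (244). Scd2 is a fatty acid desaturase and Slc7a5 a leucine carrier.

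**Figure D3:**
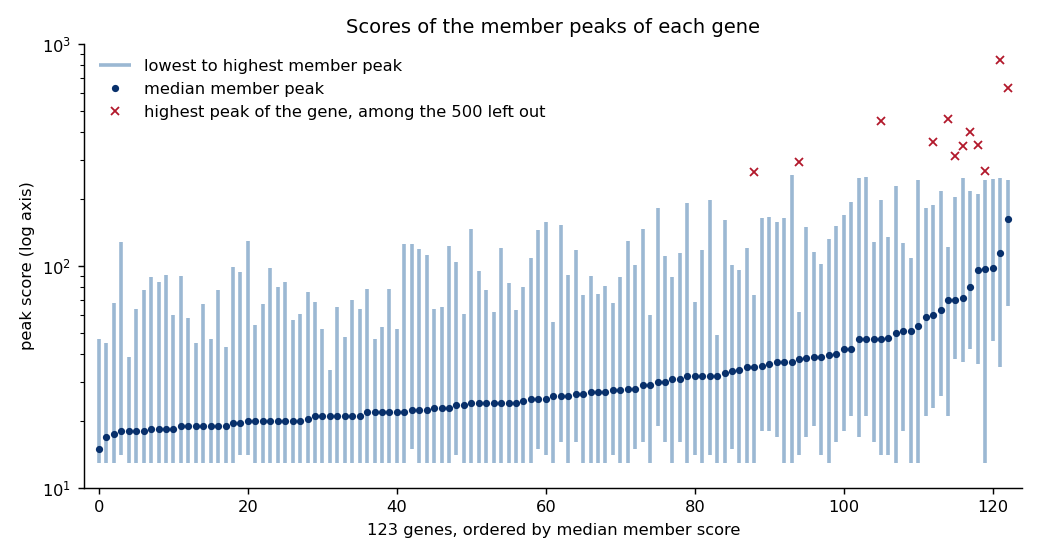
Member scores of the 123 genes (log vertical axis), with the genes in order of their median member score along the horizontal axis. Bars run from the lowest to the highest member, dots are medians, from 15 in Cds2 to 163 in Laptm5, and crosses are the highest peak of the 12 genes with peaks among the 500.

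High scores were found all along the genes. With the genes ordered from first to last peak, and the order cut into 3 equal stretches, the highest peak lay in the first stretch in 52 genes, in the middle one in 27 and in the last in 44. Each score was also divided by its gene's median, and the median of this relative score stayed between 0.95 and 1.09 in each of 10 equal steps of the distance from first to last peak. Close neighbours were no more alike in score than wider spaced ones. Adjacent peaks differed by a median of 1.6-fold where centres were under 70 nt apart and by 1.53-fold at 200 nt or more, and the correlation of a peak's score with the next one's had a median of -0.01 over the genes (-0.40 to 0.49).

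Members were searched for 9 short motifs on the gene's strand, written here as DNA: AATAAA and ATTAAA (polyadenylation signals), ATTTA and TATTTAT (AU-rich elements, of which the longer contains the shorter), TGTANATA (the Pumilio motif), the run TTTTT, the repeat TGTGT, and the runs CCCCC and AAAAA. The sequence of the 70 nt was read for 3093 members and 22893 other peaks outside the 500. AATAAA was found in 3.43% of members and 6.79% of the others, and ATTAAA in 2.13% and 3.14%. The AATAAA share went with the number of peaks per gene, from 4.63% with 10 to 19 peaks to 12.3% with 1. TGTGT was found in 15.4% of members and 19.05% of the others, with 21.4% among peaks that were the only 1 of their gene. ATTTA (7.11% of members, 8.02% of the others), TATTTAT (1.20% and 1.34%), TGTANATA (1.42% and 1.75%) and TTTTT (13.4% and 12.7%) differed less. AAAAA (10.51% and 8.64%) and CCCCC (7.69% and 6.37%) were more frequent in members, with 9.34% and 6.80% in genes with 10 to 19 peaks. Base composition was alike, with 52.3% A or T in members and 52.2% in the others. Overlapping peaks share bases, so the shares are descriptions with no test, and a match does not show that a protein binds there.

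The share with the polyadenylation signal differed along the gene. AATAAA was found in 12.4% of members in the last of the 10 steps, and in 1.32% to 3.70% in each earlier step. TGTGT was gathered in some genes, with 17 of the 65 peaks of Ago2, 11 of 43 with sequence in Rbpj, 10 of 43 in Inhba, 10 of 45 in Celf1 and 8 of 20 in Fam168b. The relative score of members with TGTGT had a median of 1.14 (quartiles 0.792 and 1.86), against 1.00 (0.743 and 1.42) without it. Members with TGTANATA, of which there were 44, had a median of 1.20, and members with AATAAA one of 1.00.

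Around the peaks, the motifs were counted in 400 nt centred on each of 2792 members and 16942 other peaks. TTTTT was scarce at the centre. Placed by its middle base, it had 3.40 per 1000 positions within 20 nt of the centre of members. At 60 to 200 nt it had 7.59 per 1000 upstream and 7.94 downstream, a ratio of centre to flanks of 0.438. The other peaks had the same shape, with a ratio of 0.445. AAAAA stood downstream of the centre, at 6.77 per 1000 in the next 40 nt against 4.09 in the 40 nt before it, as in the others (5.80 and 3.04). TGTGT was 1.17 times as frequent at the centre of members as in their flanks and 1.47 times in the other peaks. Windows of neighbouring members overlap, so the flanks of 1 peak often hold the centre of the next.

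**Figure D4:**
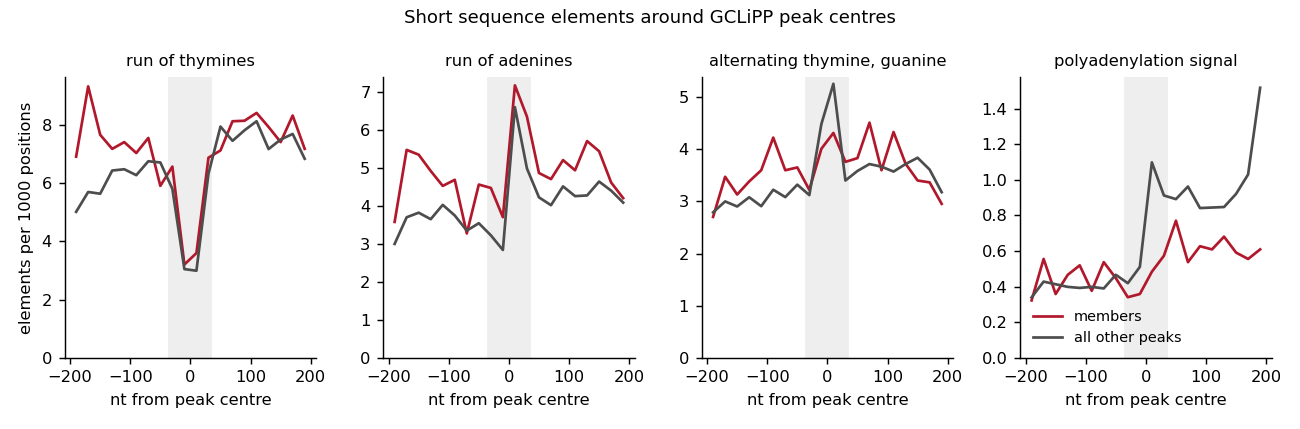
Elements per 1000 positions (vertical axis) by distance from the peak centre in nt (horizontal axis, negative upstream, steps of 20 nt) for runs of T, runs of A, alternating T and G, and the AATAAA signal, in members and in all other peaks outside the 500. The grey band is the 70 nt peak. The run of T dips near the centre in both sets, and the run of A is higher just downstream than just upstream.

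RNA levels were compared per kb of exon, since the table is not scaled by length. The 123 genes were all tested, and their mean over the 8 libraries had a median of 1184 normalised reads per kb (108.8 to 26925), against 906 in genes with 10 to 19 peaks, 620 with 5 to 9, 351 with 2 to 4, 201 with 1 and 88.5 with 0. Of the 123 genes 60 were in the top 10% of all genes tested, and 5 were below the median. RNA and peak number went together over all 6480 tested genes with a peak (Spearman rho = 0.45 across genes), and 0.03 among the 123 genes, whose range of peak numbers was cut by the rule. Genes are not independent replicates, so these are descriptions. The peak caller required a minimum read depth, and the part of read coverage in the number of peaks was not tested. With the RNA level, rho was 0.41 for the median member score across the 123 genes and 0.39 for the peaks per kb of UTR in 116 of them.

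The highest levels per kb were those of Il2ra (26925), Fam107b (13387), Laptm5 (12671), Scd2 (12536) and Lcp1 (7594). The lowest were those of Pou2f2 (108.8), a B and T cell octamer factor, Txnl4a (159), Eif2s3x (183), Zbtb7a (187) and Hivep3 (196). Pou2f2 had 27 peaks and Zbtb7a 39 at levels under the median of all tested genes, 213 per kb. Parts of Eif2s3x (34.6% of its 50-nt words), Set (29.3%), Tpm3 (23.2%) and Txnl4a (12.6%) also occur in other genes, so their RNA values are uncertain. Those of Pptc7 and Cd274 are uncertain too, with 21.2% and 14.1% of their exon bases overlapped by genes on the other strand. Smaller shares, such as 10.3% of words in Rbpj, were found in other named genes.

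No RNA condition was repeated, so each comparison took matched libraries of other conditions as replicates. The p-values measure the spread between these single libraries and not between repeats of a condition. They come from limma on log2(normalised reads + 1) over 10972 genes, with Benjamini-Hochberg adjustment over all of them and calls at 0.05. In this fit the spread of each gene was drawn towards a trend over all genes tested. The comparison of stimulation without the drug, on 4 libraries, leaned most on that trend. All values are reads scaled by 1 factor per library. A fall or rise is therefore relative to the other genes and is not an absolute amount. In bulk samples fewer cells of a type and less RNA per cell cannot be told apart. The first comparison set cells given actinomycin D against untreated cells of the same type and state, in 4 pairs. The labels do not say whether the libraries of a pair came from the same culture. The drug and the culture therefore cannot be told apart.

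With the drug, 37 of the 123 genes fell and 8 rose (45 in all), against backgrounds of 21.9% lower and 16.8% higher, together 38.7%, of all genes. That is 30.1% lower and 6.50% higher among the 123, with a median log2 change of -0.28 against 0.00 over all genes. Genes with 10 to 19 peaks were close to this, with 33.3% lower and 9.30% higher. Of the 3657 tested genes with the most normalised reads, which held 117 of the 123, 21.4% fell and 15.4% rose. Where the UTR had 3000 nt or more, 36.4% of 66 of the 123 genes fell, 35.1% of genes with 10 to 19 peaks, 30.97% with 5 to 9, 32.2% with 2 to 4 and 25% with 1. The part of UTR length in the fall was not tested. Scaled to 70 ribosomal protein genes, which moved the median of all genes to -0.50, 62 of the 123 were called, all lower and none higher, and edgeR on recovered reads, which had no stimulated CD8 library with the drug, called 19 (17 lower, 2 higher). By limma without the stimulated CD8 pair 22 were called. The 10 myeloid markers summed to 459.9, 277.6, 320.7 and 484.7 normalised reads with actinomycin D (stimulated CD8, resting CD8, stimulated Th2, resting Th2). In the untreated cells the sums were 119.7, 114.0, 160.8 and 178.3 in that order. Cd68 was the largest part of each sum, with 414.2, 215.6, 189.4 and 234.5 with the drug, against 77.05, 83.98, 86.08 and 73.18 without. Only 1 of the 10 reached the minimum mean for testing, and the part of these markers was not tested.

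The largest fall was that of Bhlhe40, a helix-loop-helix factor of effector T cells. It had 1500, 1226, 1053 and 1048 normalised reads with actinomycin D (stimulated CD8, resting CD8, stimulated Th2, resting Th2), against 46602, 11895, 16872 and 10088 in the untreated cells in that order. The 4 treated libraries were all below the 4 untreated ones (log2 change -3.87 ± 0.30 SE, adjusted p = 0.0014). Irf4, which drives effector differentiation, had 2610, 1893, 8218 and 4936 with the drug, against 44308, 9383, 54250 and 33647 without it in the same order (-2.97 ± 0.28, adjusted p = 0.0019). Nfatc2, the calcium-dependent NFAT1, had 2071, 1752, 1770 and 1649, against 9120, 5836, 8067 and 6300 (-2.0 ± 0.13, adjusted p = 0.0014).

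For all 3 factors no treated library reached the untreated level of its own cell type and state. Zbtb7a (-1.78), Irf8 (-1.77) and Klf13 (-1.11) also fell, as did Cd44 (-1.31) and Pptc7 (-1.33). Cd44 changed by -1.89 and -2.22 in stimulated CD8 and Th2 cells, and by -0.35 and -0.78 in resting ones. Irf8 had 3683 normalised reads with the drug and 18149 without in stimulated CD8 cells, against 2960 and 3960 in resting ones. In Th2 cells it had 465 and 4006 stimulated, against 466 and 1121 resting. Of the 11 T cell transcription factors among the 123 genes 7 fell and 0 rose, and of the 101 tested on the whole list 45 fell and 1 rose. Of 14 RNA-binding and decay proteins 8 fell and 1 rose, against 38 and 8 of the 105 tested on the list. These were Sfpq, a splicing factor (-0.79), Larp1 (-0.79), Larp4b (-0.90), Cnot6l (-0.71), Celf1 (-0.54) and Ago2 (-0.49) among others. Cd28 (-0.74), Rbpj (-0.73) and Ccnd2 (-0.78) fell too, the last close to the threshold (adjusted p = 0.046). The pairs were not alike. In stimulated CD8, resting CD8, stimulated Th2 and resting Th2 cells Cd28 changed by -0.81, -1.40, -0.06 and -0.70. Ccnd2 changed by -1.61, -0.54, -0.91 and -0.07 in that order. Cd28 and Ccnd2 each passed in 5 of 11 alternatives.

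Bcl2, which blocks cell death, was the largest of the 8 that rose. It had 11162, 11549, 21115 and 18497 normalised reads with the drug, against 3807, 6298, 5973 and 15105 without (log2 change 1.13 ± 0.26 SE, adjusted p = 0.018). Each treated library was above its untreated pair, but the groups overlapped, since resting Th2 without drug exceeded both treated CD8 libraries. Mlec (0.79), Leng8 (0.65), Laptm5 (0.62) and Cd47 (0.58), a "do not eat me" signal, rose less, as did Ppp2r4, Kcnab2 and Eif4ebp2. Under ribosomal protein scaling none of the 8 was called higher and Eif4ebp2 turned to -0.055.

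The second comparison set stimulated against resting cells without the drug, with 2 pairs, CD8 and Th2. Of the 123 genes 24 rose and 4 fell (28), against backgrounds of 6.59% higher and 4.69% lower, together 11.3%, of all genes. Of the 3657 tested genes with the most normalised reads, which held 117 of the 123, 8.45% rose and 4.84% fell. The share higher was 19.5% in the 123, 16.99% in genes with 10 to 19 peaks, 12.5% with 5 to 9, 7.33% with 2 to 4 and 6.04% with 1. The median log2 change was 0.33, against 0.03 over all genes. These calls depended on the fit. Without the minimum level, and without cell type as a block, limma called 0 of the 123 and 0 of all genes, while 38 and 30 of the 123, and 4053 and 1864 of all genes, had an unadjusted p under 0.05. edgeR called 22, and DESeq2 42. Scaled to ribosomal protein genes, which moved the median of all genes to -0.46, 18 were higher and 23 lower, and by quantile normalisation 16 and 7.

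The largest rise was that of Inhba, which encodes the subunit of activin A. It had 376 and 33998 normalised reads in stimulated CD8 and Th2 cells, against 8.29 and 192 in resting CD8 and Th2 cells (log2 change 6.40 ± 0.55 SE, adjusted p = 0.024). The rise held in both cell types, at levels far apart. Cd274, the inhibitory ligand PD-L1, had 7999 and 15989 in stimulated cells, against 648 and 1326 in resting cells (3.61 ± 0.12, adjusted p = 0.011). Furin (2.96), Ece1 (2.84), a protease of endothelin, and Lif (2.78), a cytokine of the IL-6 family, rose as well. So did the transcription factors Hivep3 (3.44), Pou2f2 (2.87) and Irf8 (2.02), and Cd44 (1.83), Fam107b (1.81), Cflar (1.79), Il12rb1 (1.63), Nfat5 (1.52), Kcna3 (1.49) and Ccnd2 (0.99). Scd2 was the largest fall, with 41567 and 21650 in stimulated cells, against 92908 and 62663 in resting cells (-1.35 ± 0.14, adjusted p = 0.028). Bcl2 (-1.03), Ablim1 (-0.83) and Nucks1 (-0.67) were the other 3.

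**Figure D5:**
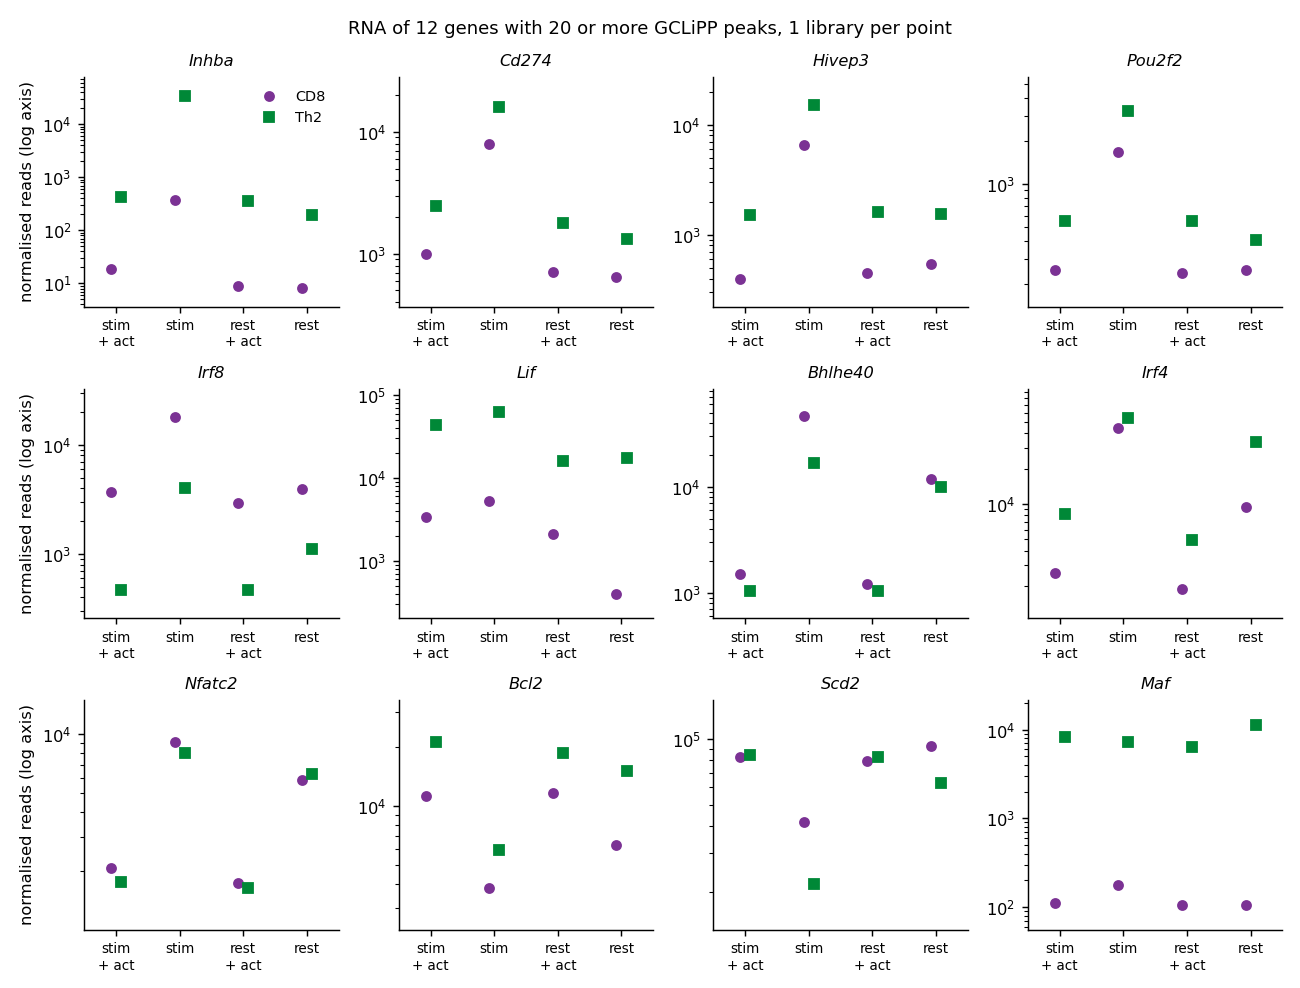
Normalised reads (log vertical axis) of 12 member genes in each of the 8 RNA libraries, 1 point per library, with circles for CD8 and squares for Th2 cells and the conditions stimulated with actinomycin D (stim + act), stimulated, resting with actinomycin D (rest + act) and resting along the horizontal axis. Inhba, Cd274, Hivep3 and Pou2f2 stand high in stimulated cells without the drug alone, and Bhlhe40, Irf4 and Nfatc2 lie lower with the drug in every pair.

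With actinomycin D few genes differed between stimulated and resting cells. Past 2-fold between stimulated and resting cells were 2 of the 123 genes in CD8 and 3 in Th2 cells with the drug, against 25 and 31 without it. Over all genes it was 1.45% and 1.72% with the drug, against 12.5% and 18.5% without. The interaction of stimulation and drug was called in 25 of the 123 (21 lower, 4 higher), beside 14.5% of all genes (7.44% lower, 7.06% higher). That is 17.1% lower and 3.25% higher among the 123. Among the 3657 tested genes with the most normalised reads it was 9.90% lower and 6.92% higher. Genes with 10 to 19 peaks were close, with 15.9% and 3.22%, as were genes with 5 to 9, with 14.9% and 3.85%. Where the UTR had 3000 nt or more, 10.6% of 66 of the 123 genes were lower, and 9.04% of genes with 10 to 19 peaks. Inhba had 18.9 and 430 in stimulated CD8 and Th2 cells with the drug, against 8.86 and 352 in resting ones with it, and its interaction was -5.75 ± 0.69 (adjusted p = 0.0080). Cd274 (-3.13 ± 0.20, adjusted p = 0.0017), Hivep3 (-3.58) and Pou2f2 (-2.83) were called in every alternative fitted. The count itself moved: it was 3 without the stimulated Th2 library with the drug and 44 without the untreated stimulated CD8 or the untreated stimulated Th2 library, and 6 to 14 without any other library. edgeR called 8, and ribosomal protein scaling, which moved the median of all genes to 0.87, called 54 (46 higher, 8 lower).

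Between CD8 and Th2 cells, 52 of the 123 genes differed, 22 higher and 30 lower in CD8 cells, against 36.8% of all genes (18.1% higher, 18.7% lower). That is 17.9% higher and 24.4% lower among the 123. Genes with 10 to 19 peaks were close to this, with 19.1% higher and 23.6% lower. The median log2 difference of the 123 was -0.01, against 0.02 over all genes. Of the 123, 33 were called without the resting CD8 or the resting Th2 library with the drug. Maf, which drives IL-4 expression, had 112, 175, 105 and 107 normalised reads in CD8 cells (stimulated with drug, stimulated, resting with drug, resting), against 8166, 7236, 6301 and 11275 in Th2 cells in that order (-6.03 ± 0.20, adjusted p = 1.9e-06). The 2 cell types did not overlap. Inhba (-5.12), Lif (-3.89), Hipk2 (-2.74), St3gal1 (-2.23), Hivep3 (-1.61), Ets1 (-1.41) and Irf4 (-1.29) were lower in CD8 cells as well. Rbpj (-0.99), Nfat5 (-0.99), Ccnd2 (-0.95) and Ago2 (-0.80) were also lower in CD8 cells, so 4 of the 10 genes with the most peaks had more RNA in Th2 cells beside Inhba. Irf8 (2.41 ± 0.18, adjusted p = 8e-05) and Furin (2.45 ± 0.40, adjusted p = 0.0030) were higher in CD8 cells, and Sept11 (1.02), Slc7a5 (0.90), Padi2 (0.78) and Cds2 (0.71) were next. The B cell and Cd8a values given above also differed between the cell types. The 7 NK cell markers summed to 12874 to 14582 in the CD8 libraries and 639 to 805 in the Th2 libraries. Most of the CD8 sum was Klrd1 (4481 to 5234) and Klrk1 (8197 to 9192). Ncr1 went the other way, with 0.98 to 2.37 in the CD8 and 3.40 to 21.8 in the Th2 libraries. So did Klra8, with 0 to 1.04 and 5.52 to 11.7. The 8 stromal markers summed to 518 to 840.4 in the CD8 and 1329.8 to 2379.5 in the Th2 libraries. The part of these markers was not tested. Each cell type had 1 culture per condition, so the cell type and the culture cannot be told apart.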

How the data were processed

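The deposited peak list was made by the authors from all mouse GCLiPP libraries pooled. By its methods section, Bowtie2 placed the reads on mm10, duplicates were collapsed and peaks were called in 3′ UTRs with a 70-nt window. A peak also needed a minimum number of reads and a minimum share of the highest read depth in its 3′ UTR. Each peak carries a score, a whole number the authors deposited with no stated meaning. STAR placed the RNA-seq reads on the same genome. The deposited RNA table holds the authors' normalised signal per gene, not scaled by length although the methods describe length-scaled values. All values of a library were whole multiples of 1 step (100% within 0.01 read), so reads were recovered and gave depths from 24154849 to 31042504. A further table with the authors' fold changes was not used.

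Genes and lists were chosen with earlier results of these data known. Peaks were placed on GENCODE M21 (GRCm38), and distances run between peak centres. RNA was tested with limma 3.58.1 (R 4.3.3) with a mean-variance trend on log2(signal + 1), for genes with a mean of at least 50. Actinomycin D was tested over 4 pairs of libraries as blocks, stimulation over 4 libraries with cell type as block, and the interaction and cell type over all 8. Named genes are the 10 with the most peaks, the 5 at each end of score, spacing and RNA per kb, the 8 largest changes each way per comparison, genes of the lists, and the 10 highest members. A gene that the rule names is not reported here. edgeR 4.0.16 and DESeq2 1.42.0 on reads recovered from 7 libraries, other scalings, pseudocount 5, no minimum, no block and each library left out were the alternatives. Reads were recovered in all 8 libraries, but the stimulated CD8 library with the drug was left out of the count tests, which therefore change both the tool and the libraries. Before use the fit was run on simulated reads with a set spread and changes put in for some genes. At a log2 change of 1 it recovered 86% for the interaction and at least 99% for the other comparisons. The simulation held no other differences between cell types, states or pairs. It therefore does not show how the fit fares on these single libraries. Counts of peaks, scores and positions carry no test.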

Additional observations from a re-analysis of the deposited data

Results flagged for a closer look

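The change with stimulation differed between cells given actinomycin D and untreated cells in 25 of the 123 genes, where 14.5% of all genes passed, by the interaction term of the fit over all genes (limma, Benjamini-Hochberg adjusted). The count was 3 to 44 with 1 library left out. Of the 123 genes 17.1% were lower and 3.25% higher, close to genes with 10 to 19 peaks (15.9% and 3.22%). Among the 3657 tested genes with the most normalised reads it was 9.90% lower and 6.92% higher. The stimulation change with the drug minus that without it, on the log2 scale, was -5.75 for Inhba, -3.58 for Hivep3, -3.18 for Furin, -3.13 for Cd274, -2.83 for Pou2f2, -2.75 for Ece1, -1.93 for Il12rb1 and -1.86 for Irf8. It was 1.39 for Scd2, 1.103 for Bcl2, 0.86 for Nucks1 and 0.69 for Cd47. The 8 with a negative value were those with the largest such difference, and the 4 with a positive value were all that passed.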

How the results depend on the processing

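Of the named genes that passed a test, 23 of 28 passed in every alternative for CD8 against Th2 cells, 10 of 31 for actinomycin D, 3 of 16 for the interaction and 0 of 24 for stimulation without the drug. Eif4ebp2 with actinomycin D was the only one to turn, at -0.055 under ribosomal protein scaling. The count of the 123 genes called was 45 with actinomycin D, 22 to 38 with each pair left out and 19 by edgeR on 7 libraries. For stimulation it was 28, and 0 with no minimum and 0 with no block. For the interaction it was 25, 3 to 44 with each library left out, 8 by edgeR and 54 under ribosomal protein scaling. For CD8 against Th2 cells it was 52, and 33 to 62 with each library left out. Leaving out a library could not be fitted for stimulation without the drug, which leaves no residual degrees of freedom. The peak spacing, 84 nt at the median, became 14 nt between edges and 167.5 nt with overlapping peaks merged, by construction. For the other changes the cause was not tested. No paired analysis was possible because the replicate numbers in the labels belong to GCLiPP libraries that the peak list pools, and each RNA condition has 1 library, so no number pairs RNA libraries; the blocks used were the cell type and state. Depth limits the low genes, such as Inhba in resting CD8 cells.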
